A study of Mus musculus with 15 samples.

Results

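Type I interferon stimulated genes were followed in whole subcutaneous tumors of the mouse pancreatic ductal adenocarcinoma line PDA30364 under MEK inhibition and CD40 agonism. A list of 37 genes was taken, and each gene was read from the probe set that carried its symbol alone and had the highest mean signal over the 15 arrays. This gave 35 measured genes of 18193 genes with such a probe set. Isg15 shared its probe set with another gene symbol and Ifi44 had no probe set with its symbol, so neither was measured by this rule.

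All tumors came from 1 cell line, derived from a pancreatic tumor of a genetically engineered mouse, and were grown in the flank of C57BL/6-Ly5.1 mice 6 to 12 weeks old until day 26 after inoculation. Control mice received vehicle and control IgG, and CD40 Ab mice received vehicle and the agonist antibody against CD40 (mIgG1). MEKi mice received the MEK inhibitor GDC-0623 at 30 mg/kg daily and control IgG, and MEKi/CD40 Ab mice received both agents. There were 4 control, 4 CD40 Ab, 3 MEKi and 4 MEKi/CD40 Ab arrays, each of 1 tumor. Every value below is a log2 signal after robust multi-array averaging, so a difference of 1 is a doubling on this scale, and signals were not compared between genes.

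Type I interferons are cytokines that cells release after sensing foreign or misplaced nucleic acid. They act through the receptor IFNAR1/IFNAR2 and the kinases JAK1 and TYK2 on a transcription factor complex that includes STAT2 and IRF9 and binds a DNA element called the interferon stimulated response element. The induced genes block virus replication, sense nucleic acid, modify proteins with ISG15, ubiquitin or ADP-ribose, and in tumors are known as marks of innate immune activity in tumor cells, macrophages and dendritic cells. Interferon-γ, which signals mainly through GAS elements, induces many of the same genes.

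Promoter sequences are shown first because the list is one of genes known to respond to interferon through this element. The RefSeq promoter table (GRCm38.p6, 300 bases around each start, most of them before it) held 26 of the 37 genes. The core letters GAAANNGAAA, or TTTCNNTTTC on the other strand, were found in 12 of the 26 (46.2%) and in 1079 of all 27025 genes of the table (3.99%). The GAS letters TTCNNNGAA, which read the same on both strands, were found in 6 of the 26 (23.1%) and in 9.55% of all genes. The stretches below are those of the 6 measured genes with a core that differed most between MEKi/CD40 Ab and control tumors, written 5′ to 3′ on the strand of the gene, with the core in capitals where it lies in the stretch. Trim30a had a second listed promoter with a core, not printed.
Trim30a, chr7:104465190-104465259, minus strand: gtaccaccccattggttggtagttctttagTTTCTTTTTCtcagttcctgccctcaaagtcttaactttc
Oas3, chr5:120777695-120777764, minus strand: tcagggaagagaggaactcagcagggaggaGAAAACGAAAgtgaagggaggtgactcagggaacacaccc
Oas1a, chr5:120907500-120907569, minus strand: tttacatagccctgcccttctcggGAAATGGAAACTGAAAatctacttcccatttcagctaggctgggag
Bst2, chr8:71537557-71537626, minus strand: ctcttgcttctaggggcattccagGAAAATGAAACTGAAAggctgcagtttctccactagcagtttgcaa
Stat2, chr10:128270248-128270315, plus strand: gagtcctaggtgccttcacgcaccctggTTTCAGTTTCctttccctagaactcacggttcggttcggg
Rsad2, chr12:26456533-26456602, minus strand: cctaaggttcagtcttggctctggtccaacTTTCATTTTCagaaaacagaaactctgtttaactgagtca

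In Oas1a and Bst2 2 cores overlap, which gives the longer run of capitals. A match of letters is a description and not a measured binding site. In MEKi/CD40 Ab against control tumors, the 11 measured genes with a core had a median log2 FC of 0.69 and the 13 measured genes of the table without one had 0.65.

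All 35 genes had a higher mean in CD40 Ab and in MEKi/CD40 Ab tumors than in control tumors, while under MEKi alone 26 means were higher and 9 lower. Of all genes, 48.7% had a higher mean than control in CD40 Ab, 40.4% in MEKi/CD40 Ab and 42.6% in MEKi tumors. Averaged over the 35 genes, the 4 control arrays read 8.05, 8.37, 8.02 and 8.41, the CD40 Ab arrays 8.81, 8.57, 8.85 and 9.25, the MEKi arrays 8.67, 8.38 and 8.62, and the MEKi/CD40 Ab arrays 8.94, 9.17, 8.71 and 8.99. The CD40 Ab and MEKi/CD40 Ab arrays all lay above the control arrays, and MEKi replicate 2 lay within the control range. The highest of the 4 group means was that of MEKi/CD40 Ab for 21 genes, that of CD40 Ab for 13 and that of MEKi for 1, Ifi27l2a. The lowest was that of control for 26 genes and that of MEKi for the other 9, namely Irf7, Irf9, Ifit3, Mx2, Oasl1, Rsad2, Usp18, Trim25 and Lgals3bp.

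**Figure D1:**
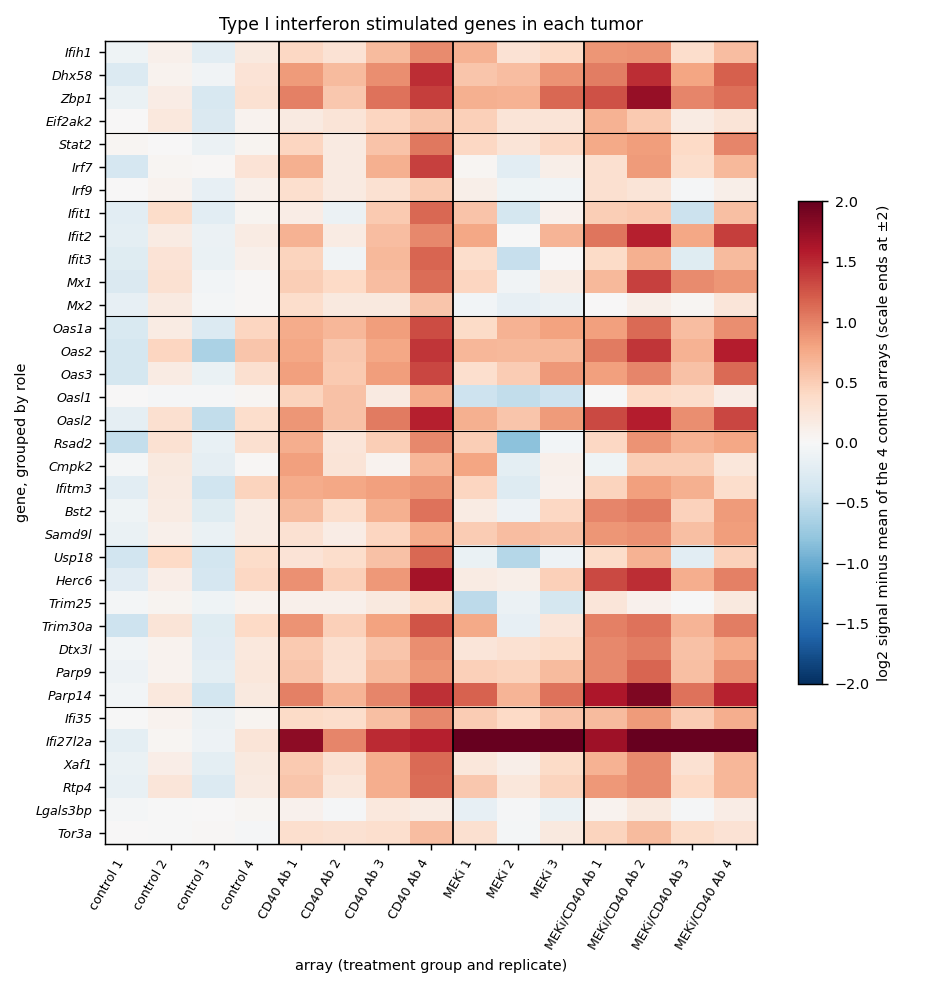
Log2 signal of each of the 35 genes in each of the 15 arrays, minus the mean of that gene in the 4 control arrays, with genes grouped by role (black lines) and arrays by treatment. Red is higher and blue lower than control, and the scale ends at ±2, which Ifi27l2a exceeds in all 3 MEKi and in 3 MEKi/CD40 Ab arrays. Oasl1 and Trim25 are blue in the MEKi arrays.

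These values are from whole tumor pieces, so more cells of a type and more RNA per cell cannot be told apart. Lists of 8 cell type markers moved with the groups. The mean macrophage marker level was 8.51 to 8.83 in control, 9.02 to 9.27 in CD40 Ab, 8.54 to 9.70 in MEKi and 9.11 to 9.79 in MEKi/CD40 Ab arrays. In MEKi/CD40 Ab against control 6 of 8 macrophage markers rose, where 10.3% of all genes were called higher. The T and NK cell marker level was 5.32 to 5.72, 5.88 to 6.31, 5.49 to 6.78 and 6.51 to 7.32 in the same order, with 5 of 7 measured markers higher in MEKi/CD40 Ab. Markers of plasmacytoid dendritic cells, known as strong producers of type I interferon, ranged from 5.39 to 5.60, 5.50 to 5.68, 5.75 to 6.35 and 5.65 to 6.23, with 2 of 8 higher in MEKi/CD40 Ab. These markers did not move together. Mean Ly6d was 6.41 in MEKi and 4.61 in control, and mean Tcf4 9.96 and 8.785. Siglech had 4.46 and 4.43, and Il3ra 5.74 and 5.96. Skeletal muscle markers ranged from 4.46 to 7.65 in control but from 8.32 to 11.28 in MEKi and from 8.67 to 10.51 in MEKi/CD40 Ab arrays. Skin keratinocyte markers were at 5.28 to 6.66 in control, 5.25 to 7.08 in CD40 Ab, 6.92 to 7.96 in MEKi and 5.18 to 5.87 in MEKi/CD40 Ab arrays. Of 6 measured, 3 were called higher in MEKi against control (10.7% of all genes), while mean Krt10 was 8.15 in CD40 Ab and 7.80 in MEKi. Granulocyte markers were 6.52 to 7.19 in control, 7.13 to 8.04 in CD40 Ab, 8.66 to 9.27 in MEKi and 7.89 to 8.40 in MEKi/CD40 Ab arrays, where all 6 measured markers were called higher. Tumor epithelium markers were at 10.73 to 11.18 in control, 10.73 to 11.38 in CD40 Ab, 11.34 to 11.76 in MEKi and 11.20 to 11.41 in MEKi/CD40 Ab arrays, so the list mean of both inhibitor groups lay above control. In MEKi/CD40 Ab against control 2 of 8 were called higher and 0 lower, with 5 log2 FC above 0 and 3 below. In MEKi 2 were called higher and 1 lower. Mean Epcam was 8.12 in control, 10.94 in MEKi and 10.15 in MEKi/CD40 Ab tumors, and mean Sox9 8.11, 7.57 and 7.81. The part of these cells in the values of the interferon stimulated genes was not tested.

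The labels also carry animal numbers. They were split here at 10000 into a lower and an upper series, and whether the numbers mark cohorts is not stated in the labels. Control tumors were 3 and 1 of these, CD40 Ab tumors 2 and 2, MEKi tumors 0 and 3, and MEKi/CD40 Ab tumors 4 and 0. The mean level of the 35 genes was 8.15 and 8.41 in the lower and upper series of control tumors and 8.69 and 9.05 in those of CD40 Ab tumors. Between MEKi and MEKi/CD40 Ab, treatment and series cannot be told apart.

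Each pair of groups was compared by limma's moderated test on the arrays of those groups, with Benjamini-Hochberg adjustment over 45037 probe sets, and a gene was called when its adjusted p was below 0.05. The comparisons against control share the same 4 control arrays and are given side by side. MEKi/CD40 Ab raised 24 of 35 genes (68.6%) and lowered 0, where 10.3% of all genes were called higher and 8.72% lower. MEKi raised 9 genes (25.7%) and lowered 1, against 10.7% of all genes higher and 10.4% lower. CD40 Ab raised 4 genes (11.4%) and lowered 0, against 1.01% of all genes higher and 0.0495% lower, and 33 of the 35 genes had an unadjusted limma p below 0.05 (11.5% of all genes). The median log2 FC of the 35 genes was 0.72 in MEKi/CD40 Ab, 0.28 in MEKi and 0.60 in CD40 Ab tumors, where that of all genes was -0.04, -0.04 and 0.00.

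Separation of the arrays was counted as well. Every MEKi/CD40 Ab array lay above every control array in 24 genes (12.3% of all genes), every CD40 Ab array in 23 (4.69% of all genes), and every MEKi array in 14 (16.4% of all genes). Every MEKi array lay below every control array in Oasl1 and Trim25 (19.3% of all genes). In MEKi/CD40 Ab tumors 11 genes were not called, and these were Eif2ak2, Irf9, Ifit1, Ifit3, Mx2, Oasl1, Cmpk2, Ifitm3, Usp18, Trim25 and Lgals3bp, with log2 FC from 0.10 to 0.58.

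The calls in single-agent tumors rested on few arrays. With the animal series as a covariate, the median log2 FC of MEKi over the 35 genes was 0.15. That fit compares MEKi with the 1 control array of the upper series. Without MEKi replicate 3 the count of genes called in MEKi was 6 in place of 10. For CD40 Ab the count was 0 without control replicate 1, 2 or 3 or CD40 Ab replicate 4, 1 without CD40 Ab replicate 1, 2 without CD40 Ab replicate 3 and 7 without CD40 Ab replicate 2. Within the lower animal series CD40 Ab raised 0 genes, with a median log2 FC of 0.49. The count for MEKi/CD40 Ab stayed between 20 and 26 under the alternatives tried.

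**Figure D2:**
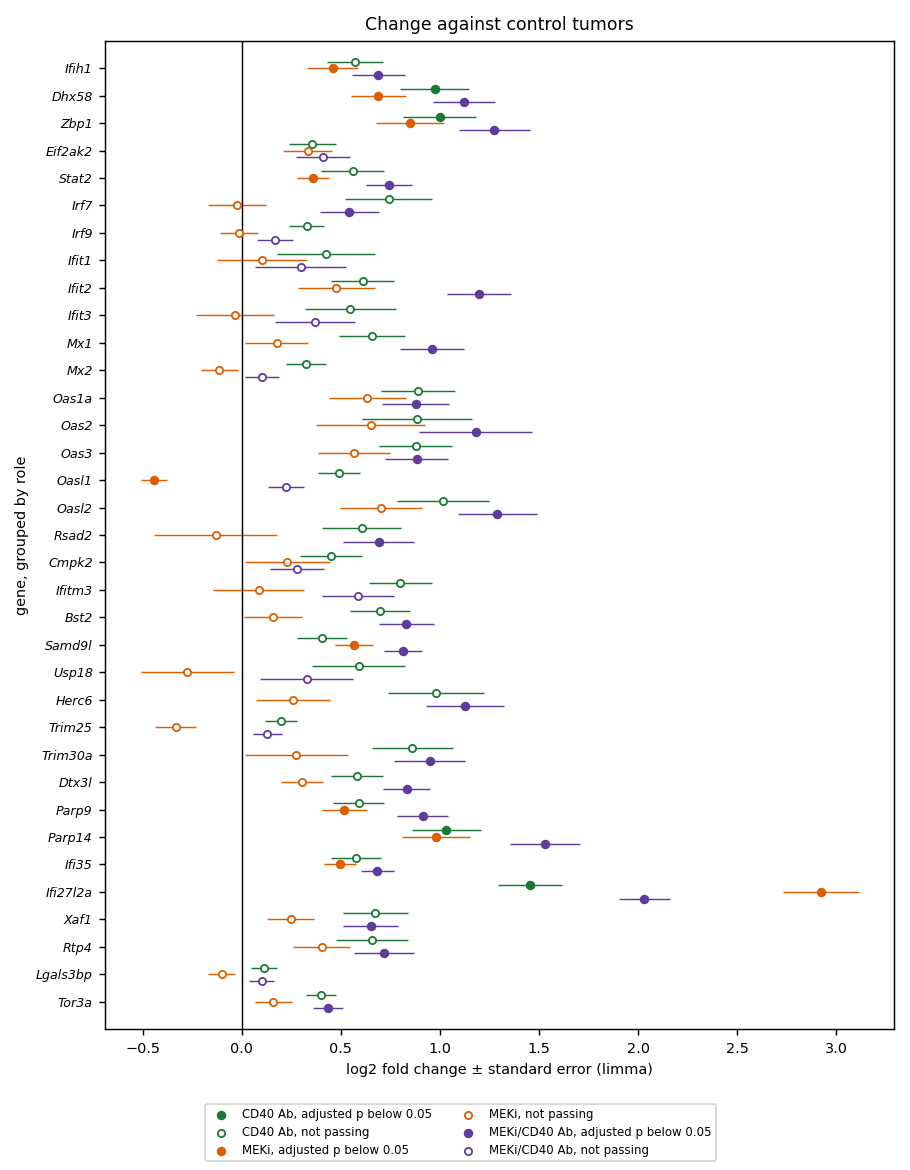
Log2 FC against control tumors with the standard error of the limma fit for each of the 35 genes, in CD40 Ab (green), MEKi (orange) and MEKi/CD40 Ab (purple) tumors; filled points have an adjusted p below 0.05. All green and purple points lie above 0, while orange points spread from -0.44 for Oasl1 to 2.92 for Ifi27l2a.

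Nucleic acid sensors were among the genes called in every treated group. In MEKi/CD40 Ab tumors 3 of 4 were called, in MEKi tumors the same 3 (Ifih1, Dhx58 and Zbp1), and in CD40 Ab tumors Dhx58 and Zbp1. Zbp1, a sensor of Z-form nucleic acid that can trigger necroptosis, read 7.39, 7.68, 7.21 and 7.83 in control, 8.53, 8.06, 8.61 and 8.91 in CD40 Ab, 8.24, 8.22 and 8.67 in MEKi and 8.80, 9.27, 8.51 and 8.63 in MEKi/CD40 Ab arrays. All 11 treated arrays lay above all control arrays. The log2 FC of Zbp1 was 1.00 ± 0.18 (SE, limma, adjusted p = 0.0470) in CD40 Ab, 0.85 ± 0.17 (0.0137) in MEKi and 1.28 ± 0.18 (0.00185) in MEKi/CD40 Ab tumors.

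Dhx58 encodes LGP2, which tunes the RIG-I-like receptors. It read 5.48, 5.83, 5.69 and 6.03 in control, 6.61, 6.39, 6.69 and 7.23 in CD40 Ab, 6.32, 6.37 and 6.65 in MEKi and 6.78, 7.24, 6.54 and 6.95 in MEKi/CD40 Ab arrays, again with no overlap with control. Its log2 FC was 0.97 ± 0.17 (limma adjusted p = 0.0442), 0.69 ± 0.14 (0.0140) and 1.12 ± 0.16 (0.00178). A dim second probe set of Dhx58 with a mean level of 3.72 gave -0.12, -0.17 and -0.16 and was not called. Another, with a mean level of 4.97, was called in MEKi/CD40 Ab (0.85, adjusted p = 0.0268) but not in CD40 Ab (0.79, 0.0836) or MEKi tumors (0.45, 0.0996). Ifih1, which encodes the double-stranded RNA sensor MDA5, rose by 0.46 ± 0.13 in MEKi (limma adjusted p = 0.0463) and 0.69 ± 0.14 in MEKi/CD40 Ab tumors (0.00913). Eif2ak2, which encodes the RNA-activated kinase PKR, had 0.33 and 0.41 in these groups and was not called. Another of its probe sets was called in both, at 0.48 (limma adjusted p = 0.00461) and 0.48 (0.0125). A further probe set of Eif2ak2 was called in neither, at 0.22 (0.1755) and 0.40 (0.0639).

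Of the transcription factors, Stat2 rose in MEKi and in MEKi/CD40 Ab tumors, Irf7 in MEKi/CD40 Ab tumors and Irf9 in no comparison. Irf7, the factor that amplifies interferon-α production, read 7.62, 7.99, 7.98 and 8.23 in control, 8.67, 8.14, 8.66 and 9.32 in CD40 Ab, 7.99, 7.74 and 8.07 in MEKi and 8.28, 8.80, 8.31 and 8.60 in MEKi/CD40 Ab arrays. The MEKi arrays lay within the control range and the MEKi/CD40 Ab arrays above it. The log2 FC was 0.74 ± 0.22 in CD40 Ab (limma adjusted p = 0.229), -0.02 ± 0.15 in MEKi (0.941) and 0.54 ± 0.15 in MEKi/CD40 Ab tumors (0.0385). Stat2, a subunit of the interferon-activated complex, had 0.36 ± 0.08 in MEKi (0.0195) and 0.74 ± 0.12 in MEKi/CD40 Ab tumors (0.00291).

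IFIT proteins bind foreign RNA and MX proteins are GTPases that trap virus particles. In this class Ifit2 and Mx1 rose in MEKi/CD40 Ab tumors, and none of the 5 genes was called under either agent alone. Ifit2 read 7.90, 8.26, 7.98 and 8.27 in control, 8.79, 8.27, 8.72 and 9.07 in CD40 Ab, 8.87, 8.09 and 8.78 in MEKi and 9.18, 9.66, 8.88 and 9.48 in MEKi/CD40 Ab arrays. The MEKi/CD40 Ab arrays lay above all control and all MEKi arrays, while 1 CD40 Ab and 1 MEKi array fell in the control range. Its log2 FC was 0.61 ± 0.16 (limma adjusted p = 0.160) in CD40 Ab, 0.48 ± 0.19 (0.138) in MEKi and 1.20 ± 0.16 (0.00158) in MEKi/CD40 Ab tumors. Mx1 had 0.66, 0.18 and 0.96 in the same order, with an adjusted p of 0.00434 in the last. Ifit1, Ifit3 and Mx2 had 0.30, 0.37 and 0.10 in MEKi/CD40 Ab tumors.

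The OAS proteins make the oligoadenylates that activate RNase L. Oas1a, Oas2, Oas3 and Oasl2 rose in MEKi/CD40 Ab tumors by 0.88 to 1.29. Oasl2 read 8.45, 8.96, 8.14 and 8.98 in control, 9.52, 9.22, 9.67 and 10.18 in CD40 Ab, 9.34, 9.18 and 9.49 in MEKi and 9.95, 10.21, 9.56 and 9.97 in MEKi/CD40 Ab arrays. Each treated group lay above the control arrays, and the MEKi/CD40 Ab arrays also lay above the MEKi arrays. The log2 FC of Oasl2 was 1.01 ± 0.23 (limma adjusted p = 0.104), 0.70 ± 0.21 (0.0548) and 1.29 ± 0.20 (0.00298) in CD40 Ab, MEKi and MEKi/CD40 Ab tumors.

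Oasl1 was lower in MEKi tumors. Its protein, which lacks the enzyme activity, is known in mice as an inhibitor of Irf7 translation. It read 6.96, 6.93, 6.93 and 7.00 in control, 7.40, 7.54, 7.14 and 7.70 in CD40 Ab, 6.54, 6.46 and 6.54 in MEKi and 6.95, 7.35, 7.30 and 7.11 in MEKi/CD40 Ab arrays. The MEKi arrays lay below and the CD40 Ab arrays above every control array. Oasl1 was the 1 gene of the list that MEKi lowered, with a log2 FC of -0.44 ± 0.07 (limma adjusted p = 0.00378), and it had 0.49 ± 0.11 in CD40 Ab (0.0898) and 0.22 ± 0.09 in MEKi/CD40 Ab tumors (0.133). With the animal series as a covariate the value was -0.49 and did not pass (0.0823), and it then rests on the 1 control array of the upper series, at 7.00.

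Among the membrane, nucleotide and translation effectors, Rsad2, Bst2 and Samd9l rose in MEKi/CD40 Ab tumors. Bst2, or tetherin, holds budding virus at the cell surface and read 9.95, 10.20, 9.79 and 10.20 in control, 10.67, 10.39, 10.75 and 11.12 in CD40 Ab, 10.20, 9.93 and 10.45 in MEKi and 11.01, 11.07, 10.50 and 10.88 in MEKi/CD40 Ab arrays. The arrays of both antibody groups lay above all control arrays, and 2 of 3 MEKi arrays lay within their range. The log2 FC was 0.70 ± 0.15 (limma adjusted p = 0.0875) in CD40 Ab, 0.16 ± 0.15 (0.517) in MEKi and 0.83 ± 0.14 (0.00414) in MEKi/CD40 Ab tumors.

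Samd9l, a blocker of translation and cell growth, had a higher mean in MEKi than in CD40 Ab tumors. It read 10.22, 10.45, 10.22 and 10.51 in control, 10.65, 10.50, 10.78 and 11.09 in CD40 Ab, 10.86, 10.96 and 10.93 in MEKi and 11.24, 11.27, 10.95 and 11.19 in MEKi/CD40 Ab arrays. Its log2 FC was 0.41 ± 0.13 (limma adjusted p = 0.261), 0.57 ± 0.10 (0.00630) and 0.81 ± 0.10 (0.000838), and the difference of MEKi from CD40 Ab did not pass (0.16 ± 0.13, adjusted p = 0.508). Rsad2, or viperin, which makes a chain-terminating nucleotide, had -0.13 in MEKi and rose by 0.69 ± 0.18 in MEKi/CD40 Ab tumors (adjusted p = 0.0308). Dimmer probe sets of Rsad2 had 0.33 (limma adjusted p = 0.120) and 0.625 (0.0820) in MEKi/CD40 Ab tumors and were not called. Cmpk2, a mitochondrial nucleotide kinase, had 0.28 there and was not called.

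Ifitm3, which blocks virus entry, read 11.03, 11.42, 10.84 and 11.69 in control, 11.98, 12.02, 12.06 and 12.12 in CD40 Ab, 11.68, 10.98 and 11.33 in MEKi and 11.69, 12.07, 11.96 and 11.60 in MEKi/CD40 Ab arrays. The CD40 Ab arrays lay above all control arrays and the MEKi arrays within their range. The log2 FC was 0.80 ± 0.16 (limma adjusted p = 0.0667), 0.08 ± 0.23 (0.839) and 0.58 ± 0.18 (0.0617) in CD40 Ab, MEKi and MEKi/CD40 Ab tumors.

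Of the 7 measured modifier genes, 5 rose in MEKi/CD40 Ab tumors. Parp14, an ADP-ribosyltransferase, read 8.12, 8.38, 7.80 and 8.37 in control, 9.17, 8.85, 9.15 and 9.63 in CD40 Ab, 9.34, 8.85 and 9.25 in MEKi and 9.79, 10.04, 9.26 and 9.70 in MEKi/CD40 Ab arrays. Every treated array lay above every control array. The log2 FC of Parp14 was 1.03 ± 0.17 (limma adjusted p = 0.0348) in CD40 Ab, 0.98 ± 0.17 (0.00749) in MEKi and 1.53 ± 0.18 (0.000695) in MEKi/CD40 Ab tumors. A second, dimmer probe set of Parp14 was called in MEKi/CD40 Ab (0.92, adjusted p = 0.00599) but in neither single-agent group (0.48 and 0.32).

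The other modifiers ran from -0.33 to 0.52 in MEKi tumors. Parp9, the partner of the ubiquitin ligase Dtx3l, rose by 0.52 ± 0.11 (limma adjusted p = 0.0193) in MEKi and 0.91 ± 0.13 (0.00186) in MEKi/CD40 Ab tumors, and Dtx3l had 0.30 and 0.83 with a call in the latter (0.00204). Another probe set of Dtx3l, with a mean level of 9.11, was called in both groups, at 0.50 (0.0112) and 1.03 (0.00102). Herc6, the mouse ligase for ISG15, had 0.26 in MEKi and 1.13 ± 0.20 in MEKi/CD40 Ab tumors (0.00529), and Trim30a, a TRIM family regulator of innate signaling, had 0.28 and 0.95 ± 0.18 (0.00749). Usp18, which removes ISG15 and damps the interferon receptor, read 8.67, 9.45, 8.69 and 9.42 in control, 9.33, 9.41, 9.65 and 10.20 in CD40 Ab, 8.92, 8.48 and 8.95 in MEKi and 9.43, 9.75, 8.84 and 9.52 in MEKi/CD40 Ab arrays. These ranges overlapped control in every group.

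Trim25, a ubiquitin ligase of the RIG-I pathway, read 10.61, 10.71, 10.57 and 10.72 in control, 10.75, 10.76, 10.85 and 11.04 in CD40 Ab, 10.13, 10.53 and 10.30 in MEKi and 10.90, 10.74, 10.64 and 10.84 in MEKi/CD40 Ab arrays. The MEKi arrays lay below every array of the other groups. The log2 FC against control was -0.33 ± 0.10 in MEKi tumors and did not pass (limma adjusted p = 0.0646).

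**Figure D3:**
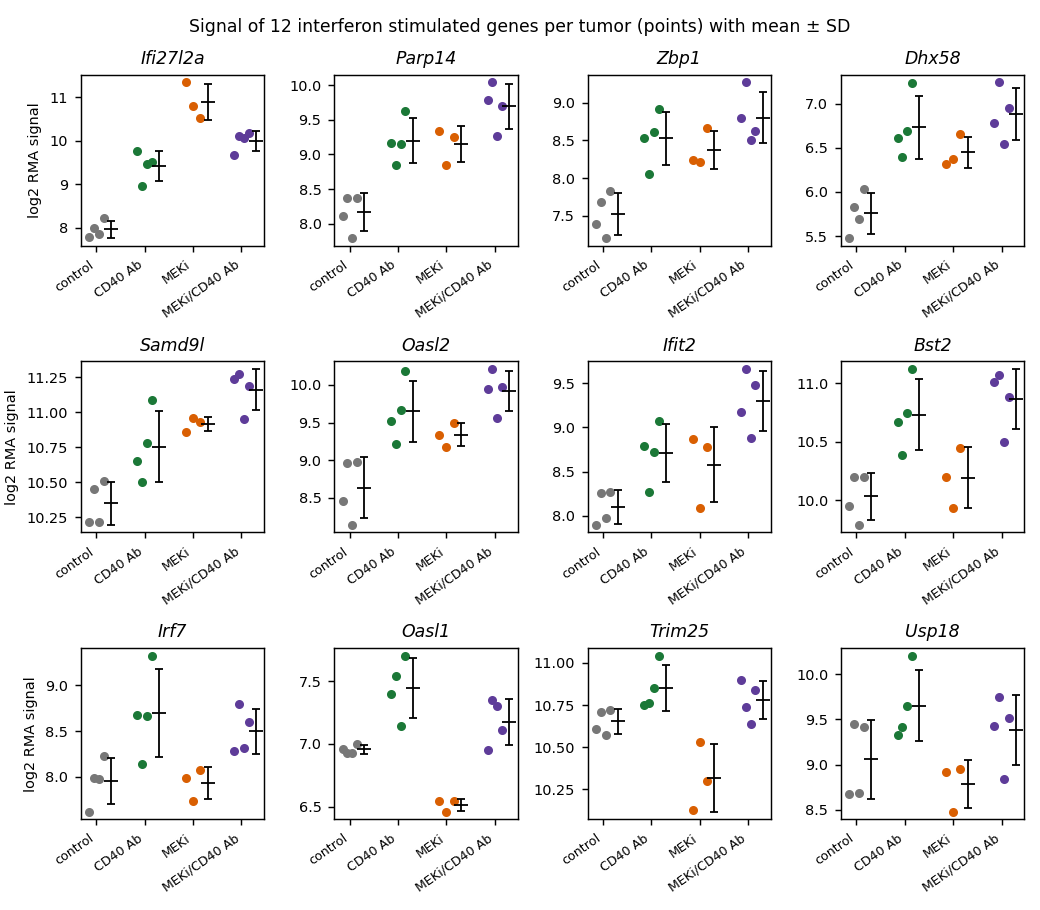
Log2 signal of 12 genes in every array (points), with the mean and SD of each group beside them; each panel has its own axis, which does not start at 0. In the upper rows most treated arrays lie above control, whereas in Oasl1 and Trim25 the 3 MEKi arrays lie below control.

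Ifi27l2a, a small interferon-induced membrane protein, gave the largest differences of the list. It read 7.78, 8.00, 7.86 and 8.23 in control, 9.76, 8.95, 9.46 and 9.52 in CD40 Ab, 11.34, 10.80 and 10.53 in MEKi and 9.67, 10.10, 10.05 and 10.18 in MEKi/CD40 Ab arrays. No treated array overlapped control, and the MEKi arrays lay above all other arrays. The log2 FC was 1.46 ± 0.16 (limma adjusted p = 0.0186) in CD40 Ab, 2.92 ± 0.19 (0.000118) in MEKi and 2.03 ± 0.13 (5.37e-05) in MEKi/CD40 Ab tumors. With the animal series as a covariate the MEKi value was 2.66, and it then rests on the 1 control array of the upper series, at 8.23.

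Of the 5 remaining genes, 4 rose in MEKi/CD40 Ab tumors. Ifi35, a leucine zipper protein, rose by 0.50 ± 0.08 in MEKi (limma adjusted p = 0.00558) and 0.68 ± 0.08 in MEKi/CD40 Ab tumors (0.000914). Xaf1, a proapoptotic factor, Rtp4, a chaperone of receptor transport, and Tor3a, a torsin ATPase, rose by 0.65, 0.72 and 0.44 in MEKi/CD40 Ab tumors and had 0.25, 0.40 and 0.16 in MEKi tumors. A dimmer probe set of Rtp4 was called in both, at 0.58 (limma adjusted p = 0.0163) and 0.60 (0.0208). In MEKi/CD40 Ab tumors dimmer probe sets of Xaf1 (0.12, 0.512) and Tor3a (0.33, 0.0759) were not called, and another of Tor3a was (0.405, 0.0279). Lgals3bp, a secreted glycoprotein, had 0.10 in MEKi/CD40 Ab, -0.10 in MEKi and 0.11 in CD40 Ab tumors.

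Whether the single agents differed from one another was examined in a comparison added after the values had been seen. MEKi tumors were higher than CD40 Ab tumors in 1 gene and lower in 5, where 6.89% of all genes were called higher and 5.75% lower. All 7 arrays separated upward in Ifi27l2a (13.0% of all genes) and downward in Irf7, Irf9, Mx2, Oasl1, Ifitm3, Usp18 and Trim25 (15.9% of all genes). Ifi27l2a was higher in MEKi by 1.47 ± 0.23 (limma adjusted p = 0.00892). Oasl1 was lower by 0.93 (log2 FC -0.93 ± 0.13, 0.00552), and Usp18 (-0.86 ± 0.22, 0.0452), Ifitm3 (-0.71 ± 0.15, 0.0249), Trim25 (-0.53 ± 0.12, 0.0302) and Mx2 (-0.44 ± 0.10, 0.0394) were also lower. Dimmer probe sets of Trim25 had -0.38 (limma adjusted p = 0.0878) and -0.33 (0.188) and did not pass. An unused probe set of Herc6 passed (-0.82, 0.019), while its used probe set had -0.72 (0.117). The median over the 35 genes was -0.28 and over all genes -0.04. The mean was lower in MEKi for 33 of the 35 genes and for 10665 of all 18193 genes.

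The count of 6 fell to 2 without CD40 Ab replicate 1, 3 or 4 or without MEKi replicate 3, and to 3 without CD40 Ab replicate 2. With the animal series as a covariate it was 2, both lower. The median over the 35 genes was -0.16 without CD40 Ab replicate 4 and -0.48 with that covariate.

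Of 35 group means, 34 were higher in MEKi/CD40 Ab than in MEKi tumors (51.5% of all genes). In this pair treatment and animal series cannot be told apart. By the rule of 1 probe set per gene, 1 gene, Oasl1, passed the test (1.38% of all genes higher and 2.65% lower). Unused probe sets of Herc6 (0.77, limma adjusted p = 0.0332) and Zbp1 (0.86, 0.0391) also passed. The log2 FC of Oasl1 in MEKi/CD40 Ab against MEKi was 0.66 ± 0.11 (limma adjusted p = 0.0210), and 24 of 35 genes had an unadjusted limma p below 0.05 (21.3% of all genes). Every MEKi/CD40 Ab array lay above every MEKi array in 11 genes (8.77% of all genes): Irf7, Ifit2, Mx1, Mx2, Oas2, Oasl1, Oasl2, Bst2, Herc6, Trim25 and Dtx3l. Ifi27l2a went the other way, with -0.89 ± 0.20 (0.0606) and arrays that did not overlap. The count was 0 without MEKi replicate 3 or without MEKi/CD40 Ab replicate 2 or 4, 4 without MEKi replicate 1 and 3 without MEKi/CD40 Ab replicate 3, and the single fit of all 15 arrays called 7.

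Adding MEKi to the antibody gave no call among the 35 genes, where 3.69% of all genes were higher and 2.52% lower. At an unadjusted limma p below 0.05 there were 6 of the 35 genes (17.1%) and 25.4% of all genes. The differences ran from -0.27 for Oasl1 to 0.59 for Ifit2, and 0 genes had arrays that separated upward (7.26% of all genes). The median was 0.09 and had no stable sign. It was -0.02 without CD40 Ab replicate 2, 0.04 without CD40 Ab replicate 1, 0.21 without CD40 Ab replicate 4, 0.05, 0.02 and 0.16 without MEKi/CD40 Ab replicates 1, 2 and 3, and 0.28 with the animal series as a covariate. Ifit2 (0.59 ± 0.20, limma adjusted p = 0.125), Ifi27l2a (0.58 ± 0.17, 0.0901), Parp14 (0.50 ± 0.19, 0.168) and Samd9l (0.41 ± 0.13, 0.103) had the highest values. Other fits called 0 or 1 gene, with 1 when the animal series was a covariate, within the lower series alone, or without CD40 Ab replicate 4.

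The interaction asks whether the effect of the antibody in MEKi-treated tumors differed from its effect in vehicle-treated tumors. It passed in Ifi27l2a alone of the 35 genes, with -2.35 ± 0.28 (limma on all 15 arrays, adjusted p = 0.000882), where 2.00% of all genes were called higher and 2.56% lower. The antibody raised Ifi27l2a by 1.46 over control and MEKi/CD40 Ab tumors were 0.89 below MEKi tumors, as given above. In the latter pair treatment and animal series cannot be told apart. With the animal series as a covariate the interaction of Ifi27l2a was -2.06 (limma adjusted p = 0.0491). In the other 34 genes the interaction without that covariate ran from -0.64 for Oas1a to 0.26 for Trim25. The median over the 35 genes was -0.19 and turned to 0.21 with the animal series as a covariate. It was -0.05 without CD40 Ab replicate 4, -0.10 without MEKi/CD40 Ab replicate 3, -0.31 without CD40 Ab replicate 2 and -0.32 without MEKi replicate 2.

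**Figure D4:**
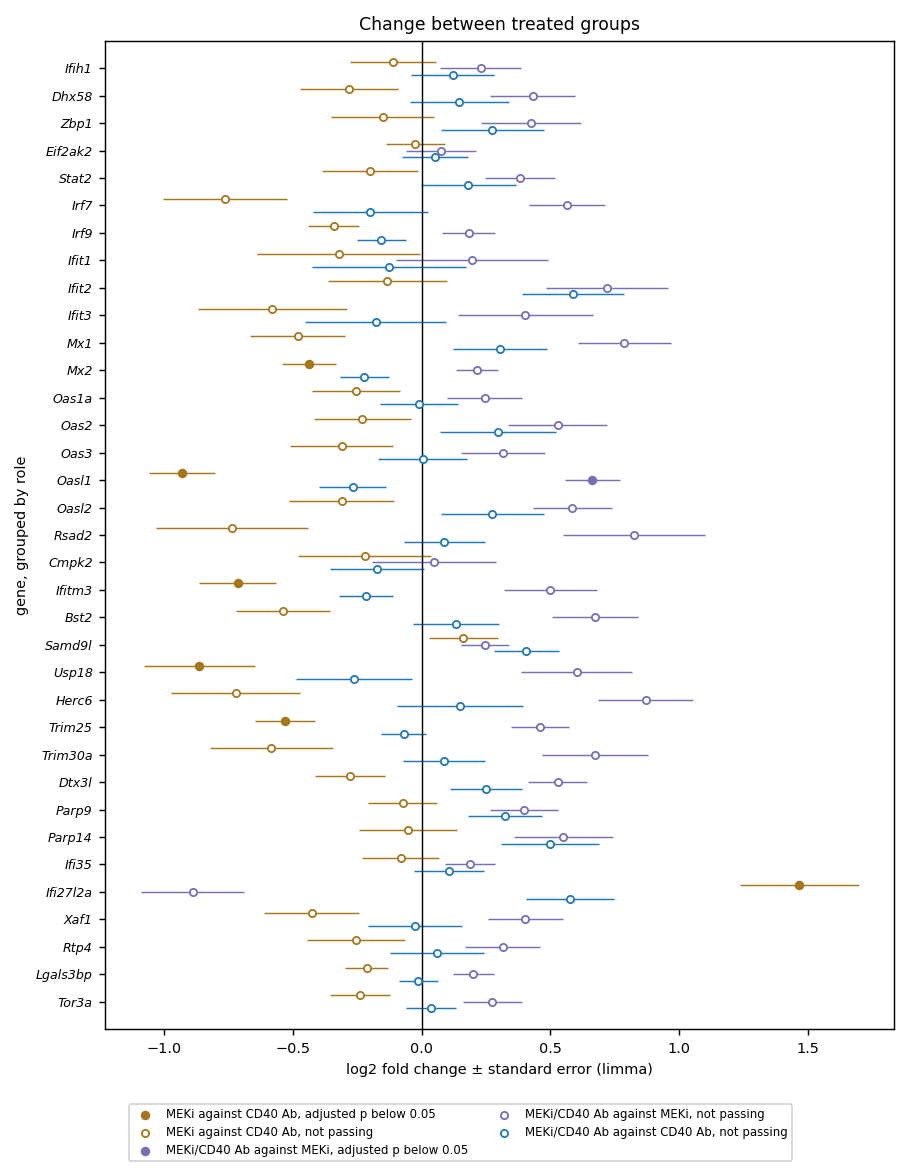
Log2 FC with the standard error of the limma fit between treated groups for the 35 genes: MEKi against CD40 Ab (brown), MEKi/CD40 Ab against MEKi (violet) and MEKi/CD40 Ab against CD40 Ab (blue), with filled points at an adjusted p below 0.05. Brown points lie mostly below 0 and violet points mostly above, with Ifi27l2a the reverse, and no blue point is filled.

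No type I interferon transcript was called higher against control. Of 18 listed interferon genes 10 were measured, and none of the interferon-α genes was called in a comparison with control. Ifnb1, which encodes interferon-β, read 3.86, 3.86, 4.30 and 3.76 in control, 3.53, 3.85, 3.90 and 3.88 in CD40 Ab, 3.39, 3.39 and 3.58 in MEKi and 3.81, 3.86, 3.78 and 3.63 in MEKi/CD40 Ab arrays. It was lower in MEKi, by 0.49 (log2 FC -0.49 ± 0.13, limma adjusted p = 0.0417), and had -0.15 and -0.17 in the other groups. Ifnz, interferon-ζ, was lower in MEKi (-0.63 ± 0.09, 0.00323) and in MEKi/CD40 Ab tumors (-0.33 ± 0.07, 0.00943). No detection call was used here, so a low signal cannot be told from background.

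Ifng, the type II interferon made by T and NK cells, rose in every treated group. It read 3.98, 4.00, 3.59 and 4.27 in control, 4.90, 4.97, 4.94 and 5.65 in CD40 Ab, 4.72, 4.67 and 5.78 in MEKi and 5.67, 6.64, 4.99 and 5.53 in MEKi/CD40 Ab arrays, with no overlap with control. Its log2 FC was 1.16 ± 0.18 (limma adjusted p = 0.0313), 1.10 ± 0.28 (0.0317) and 1.75 ± 0.30 (0.00467) in CD40 Ab, MEKi and MEKi/CD40 Ab tumors.

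Of 9 receptor and kinase genes, 4 rose in MEKi/CD40 Ab tumors against control, 2 rose and 1 fell in MEKi, and 0 were called in CD40 Ab tumors. Of all genes 10.3%, 10.7% and 1.01% were called higher in these groups, and 10.4% lower in MEKi. Ifnar1 rose in MEKi/CD40 Ab (0.32 ± 0.08, limma adjusted p = 0.0268) and MEKi tumors (0.42 ± 0.10, 0.0287), Ifnar2 in MEKi/CD40 Ab (0.41 ± 0.07, 0.00428), and Ifngr1, a subunit of the interferon-γ receptor, in MEKi/CD40 Ab tumors (0.63 ± 0.07, 0.000695). Tyk2, the kinase on Ifnar1, was lower in MEKi (-0.31 ± 0.08, 0.0401). Of 6 measured further STAT and IRF genes, 3 rose in MEKi/CD40 Ab, 2 in MEKi and 2 in CD40 Ab tumors.

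Irf1, a factor induced by interferon-γ, rose in all groups. It read 9.95, 10.09, 9.71 and 10.19 in control, 10.87, 10.54, 10.86 and 11.01 in CD40 Ab, 11.04, 10.73 and 11.26 in MEKi and 11.29, 11.52, 10.87 and 11.29 in MEKi/CD40 Ab arrays, all treated arrays above control. Its log2 FC was 0.83 ± 0.12 (limma adjusted p = 0.0257), 1.02 ± 0.15 (0.00382) and 1.26 ± 0.14 (0.000695). Irf8, a factor of macrophages and dendritic cells, rose in CD40 Ab (0.88, 0.0442) and MEKi/CD40 Ab tumors (1.08, 0.0163), and Irf2 in MEKi (0.37, 0.0109) and MEKi/CD40 Ab tumors (0.35, 0.00379). Of 12 measured sensing and induction genes 5, 3 and 2 rose in MEKi/CD40 Ab, MEKi and CD40 Ab tumors, and of 6 inhibitors 3, 2 and 1. The shares of all genes called higher were 10.3%, 10.7% and 1.01%. Socs1, a feedback inhibitor of JAK kinases, had 1.13 (0.0106) in MEKi/CD40 Ab and 1.11 (0.00954) in MEKi.

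Gene families that respond to interferon-γ are given for comparison. Of 11 measured GBP and IRG GTPases, which attack vacuoles of intracellular microbes, 10 rose in MEKi/CD40 Ab, 9 in MEKi and 3 in CD40 Ab tumors, with median log2 FC of 1.26, 0.94 and 1.01. Of 13 measured immunoproteasome and peptide loading genes, 13, 6 and 6 rose, with medians of 1.12, 0.77 and 0.79. For both families the shares of all genes called higher were 10.3%, 10.7% and 1.01%. The median of the type I interferon stimulated genes was below both in each comparison (0.72, 0.28 and 0.60), and this difference was not tested. In MEKi, 9 of 11 GTPase genes and 9 of 35 interferon stimulated genes were called higher, and 0 and 1 were called lower.

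**Figure D5:**
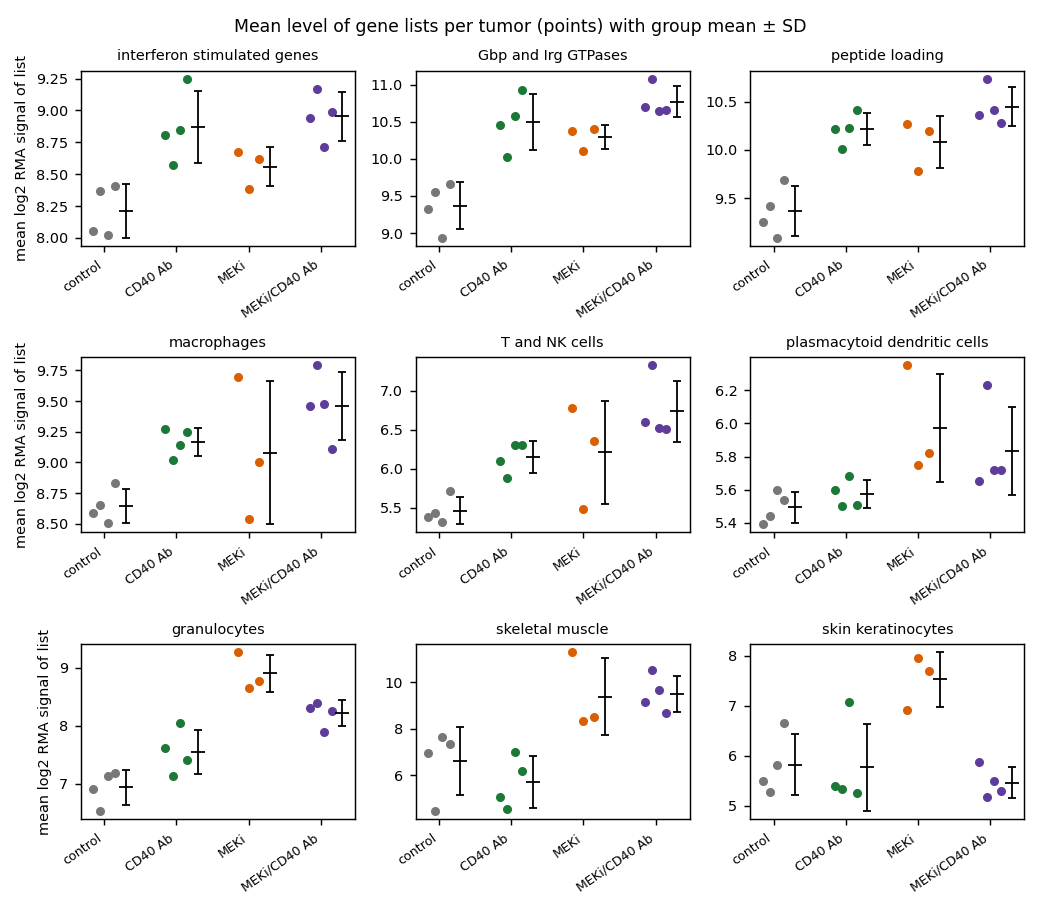
Mean log2 signal of gene lists in every array (points), with the mean and SD of each group beside them; each panel has its own axis, which does not start at 0. The interferon stimulated genes, GTPases and peptide loading genes have their lowest group mean in control. MEKi arrays vary most in macrophage, T and NK cell and muscle markers, and the group mean of skin markers is highest in MEKi.

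Over the 15 arrays, the genes outside the list with the highest Pearson r with the mean level of the 35 genes were Ifi47 (0.965), Ube2l6 (0.964), Trafd1 (0.955), Pnpla7 (0.955), Gbp7 (0.954), Trim21 (0.951), Trim34a (0.951), Gm4951 (0.951), Iigp1 (0.947) and Gbp6 (0.946). Arrays share tumor composition and treatment, so these values are a description. Within the list, r with the mean of the other genes was highest for Oasl2 (0.978) and Rtp4 (0.975) and lowest for Trim25 (0.44), Oasl1 (0.469) and Ifi27l2a (0.497). With the group means removed it was 0.358, 0.264 and 0.44 for these 3 genes. For Usp18 and Ifit3 it was 0.745 and 0.795 over all arrays and 0.933 and 0.917 with the group means removed.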

How the data were processed

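RNA of whole, snap frozen tumors was measured on Affymetrix mouse expression arrays with 3′ end labelling, 1 tumor per array. The deposited table holds log2 values per probe set that the authors made by robust multi-array averaging (RMA), which includes background correction and quantile normalization. A software version is not given in the sources used here. Scanner files were not used here. Of 45101 probe sets, 64 controls were left out and 45037 were tested. All columns were matched to a sample (0 unmatched). Arrays give no read depth, and 3 or 4 arrays per group limit the precision.

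Pairs of groups were tested in limma 3.58.1, run under R 4.3.3 (two-sided empirical Bayes moderated test, arrays of the 2 groups alone, Benjamini-Hochberg adjustment, threshold 0.05, no fold minimum), and the interaction was fitted on all 15 arrays. Standard errors are those of the moderated fit, and levels and figures used Python 3.11.15. Tested on simulated data of 45037 probe sets, the fits recovered 85% to 89.5% of 200 doubled or halved values with 6 to 11 false calls. The simulated noise was independent between probe sets, so variation that the probe sets of an array share was not covered.

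The genes, lists and rules were chosen with earlier results of these data known, and the comparison of MEKi with CD40 Ab was added after seeing the data. Values per array are given for the 5 called genes with the largest difference in each comparison, for those called against the common direction or by the interaction, and for the gene of each role with the widest range of group means; Irf1, Ifng and Ifnb1 stand for the pathway. Samples are separate tumors, and replicate numbers did not pair arrays across groups. Motifs were searched in RefSeq promoters of GRCm38.p6, read on the strand of the gene.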

Additional observations from a re-analysis of the deposited data

Results flagged for a closer look

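Within groups of 4 arrays, 105 gene and group combinations and the mean level of the 35 genes in 3 groups were examined for 1 array apart from the others, of which chance flags about 1 in 20, and 3 stood apart. Ifit1 read 8.15 in MEKi/CD40 Ab replicate 3 against 9.07 to 9.18 in the other 3 arrays. Trim30a read 8.83 in the same array against 9.17 to 9.24. Tor3a read 7.79 in CD40 Ab replicate 4 against 7.48 to 7.51.

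The effect of the antibody on Ifi27l2a differed between vehicle and MEKi-treated tumors, with an interaction of -2.345 on the log2 scale (limma adjusted p = 0.000882). With the animal series as a covariate the interaction was -2.061 (limma adjusted p = 0.0491). MEKi and MEKi/CD40 Ab tumors lay in different animal series, so treatment and series cannot be told apart between them. The antibody groups lay above control and below MEKi in all arrays.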

How the results depend on the processing

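The count for MEKi/CD40 Ab against control (24) ranged from 20 to 26 over all alternatives (leaving out 1 array, 21 to 26), and the interaction count was 1 in each, though the sign of its median turned with the animal series as a covariate (0.21 from -0.19). For MEKi against control (10), leaving out 1 array gave 6 to 12. With the animal series as a covariate this comparison rests on the 1 control array of the upper series, so its count is not given. For CD40 Ab against control (4), 1 fit of all 15 arrays gave 1, the lower animal series alone 0 and leaving out 1 array 0 to 7. For MEKi/CD40 Ab against MEKi (1), the fit of all 15 arrays gave 7, median centring 2, array weights 2, a robust prior with an intensity trend 3, dim probe sets left out 3, probe sets of shared sequence left out 3, the mean over probe sets 5 and leaving out 1 array 0 to 4. The animal series could not be fitted there. For MEKi/CD40 Ab against CD40 Ab (0), the series covariate and the lower series alone gave 1 each and leaving out 1 array 0 to 1. For MEKi against CD40 Ab (6), the series covariate gave 2 and leaving out 1 array 2 to 5. The causes were not tested.

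A replicate block gave 5 for MEKi against control, 0 for MEKi/CD40 Ab against MEKi and 3 for MEKi against CD40 Ab, and changed no other count by over 1.5 times. Of 21 pairs of arrays with the same number, 9 had a correlation of deviations over 0.1, and 6 of 15 arrays were nearest to their own number. Single genes were followed under the alternatives only where they were called in the fit as reported, pooled over all comparisons. Of 839 such values, 718 still passed, 121 no longer passed and 0 changed sign. Genes called only under an alternative were not counted.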
